A study of Mus musculus with 32 samples.

Results

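The genes described here are those of early secretory traffic, from the targeting of nascent proteins to the endoplasmic reticulum (ER) to their transport between the ER and the Golgi. They were chosen by gene symbol and number 59 of the 24197 genes in the deposited table. By role they comprise 8 genes of the signal recognition particle (Srp), 6 of the translocon (Sec61, Sec62 and Sec63), 4 of the translocon-associated TRAP complex (Ssr), 5 of signal peptidase (Sec11 and Spcs), 12 of the COPII coat and its partners (Sec13, Sec16, Sec23, Sec24 and Sec31), 3 SNARE genes (Sec22), 11 p24 cargo receptor genes (Tmed), 7 of the COPI coat (Cop and Arcn1) and 3 GTPase activators of ARF proteins (Arfgap).

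Liver poly(A) RNA was sequenced from 32 Crl:CD1(ICR) mice, an outbred stock, that had received a locked nucleic acid (LNA) oligonucleotide complementary to a microRNA, or a scrambled LNA. Females received LNA-802, directed at miR-802-5p, and males received LNA-1948, directed at miR-1948-5p. All mice, including the controls, had 2 subcutaneous injections of 25 mg/kg at 9 weeks of age (10 weeks in the age label), and livers were collected at day 3 or day 6. The 8 groups were LNA-802 females at day 3 (5 mice) and scrambled females at day 3 (3 mice), LNA-802 females at day 6 (5 mice) and scrambled females at day 6 (3 mice), LNA-1948 males at day 3 (5 mice) and scrambled males at day 3 (3 mice), and LNA-1948 males at day 6 (5 mice) and scrambled males at day 6 (3 mice). The titles of the day 6 scrambled females repeat 1 mouse number under 3 library numbers, and the protocol gives 3 control mice per sex and day. The LNA and the sex cannot be told apart in this design, nor can the day and the library series named in the labels.

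Proteins for secretion are recognised as they emerge from the ribosome by the signal recognition particle and pass into the ER through the Sec61 translocon, where signal peptidase removes the signal peptide. COPII-coated vesicles carry folded cargo from ER exit sites towards the Golgi, and COPI-coated vesicles return escaped ER proteins and recycle receptors. The p24 proteins cycle between both organelles and help to load cargo. Hepatocytes secrete most plasma proteins, so this route is heavily used in liver.

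The deposited table gives the authors' mean FPKM of each group (fragments scaled to transcript length and library size), an expression ratio and an edgeR p-value for each comparison. It holds no value per mouse, so no error stands beside a group mean, whether groups overlapped between mice is unknown, and the depth of each library is unknown. Over all genes a group's means summed to 198940 FPKM at the lowest and 206757 FPKM at the highest, and 9004 to 9327 genes per group reached 1 FPKM. Log2 ratios below are those of the authors' deposited table, anti-miR over scrambled, and each ± is an approximate standard error worked back from the deposited p, which is unstable where p is near 1 and is not printed for p above 0.5. A gene is called changed where the authors' adjusted p is under 0.05. Shares of genes called or with a low edgeR p are over all 24197 genes, most of them under 1 FPKM, unless a level is named. Of the 59 members 53 reached 1 FPKM, so those shares are not matched for level. In whole liver, fewer cells of a type and less RNA per cell cannot be told apart. Hepatocyte markers were the most abundant of the marker lists, with summed levels of 19174 to 28118 FPKM, as the tissue label says.

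The reagent given to the females and its target are shown because the seed complement recurs below in the member that moved with the smallest p. The mature miR-802 is from RefSeq (GRCm38.p6, chr16:93369737-93369758, plus strand) with the seed, bases 2 to 8, in capitals, and the LNAs are as the labels give them, 5′ to 3′, with the bases that pair with that seed in capitals.
mmu-miR-802-5p: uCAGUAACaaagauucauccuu
LNA-802: gaatctttGTTACTG
scrambled LNA: acgtctatacgccca
LNA-802 pairs with miRNA bases 2 to 16, a run of 15 bases that takes in all 7 seed bases. The longest run that the scrambled LNA can pair with miR-802-5p is 3 bases. The level of miR-802-5p itself was not measured in these libraries.

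Most of the secretory traffic genes were expressed at moderate and similar levels in every group. Of the 59, 53 reached 1 FPKM in at least 1 group, and 38 had a mean of at least 10 FPKM over the 8 groups. The most abundant was Tmed2, a p24 cargo receptor, with 48.2 to 58.1 FPKM across groups. It was followed by Ssr3 of the TRAP complex (39.2 to 53.3 FPKM), Copz1 of the COPI coat (33.8 to 39.1 FPKM) and Sec61a1, the channel-forming translocon subunit (29.6 to 38.2 FPKM). In the other roles the highest means were 15.9 FPKM for Srp72, 19.9 FPKM for Spcs1, 19.6 FPKM for Sec31a, 11.8 FPKM for Sec22b and 16.5 FPKM for Arfgap2. Low paralogs stood beside abundant ones: Sec61a2 averaged 1.17 FPKM, Sec31b 1.22 FPKM and Copz2 4.93 FPKM. The 6 members that stayed under 1 FPKM were Sec22c (at most 0.9997 FPKM), Tmed8, Tmed6, Srp54a, Srp54b and Tmed11, which was listed at 0 in all 8 groups. Srp54a, Srp54b and Srp54c are near-identical copies that overlap in the table's coordinates, so how reads were divided between them is uncertain.

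**Figure D1:**
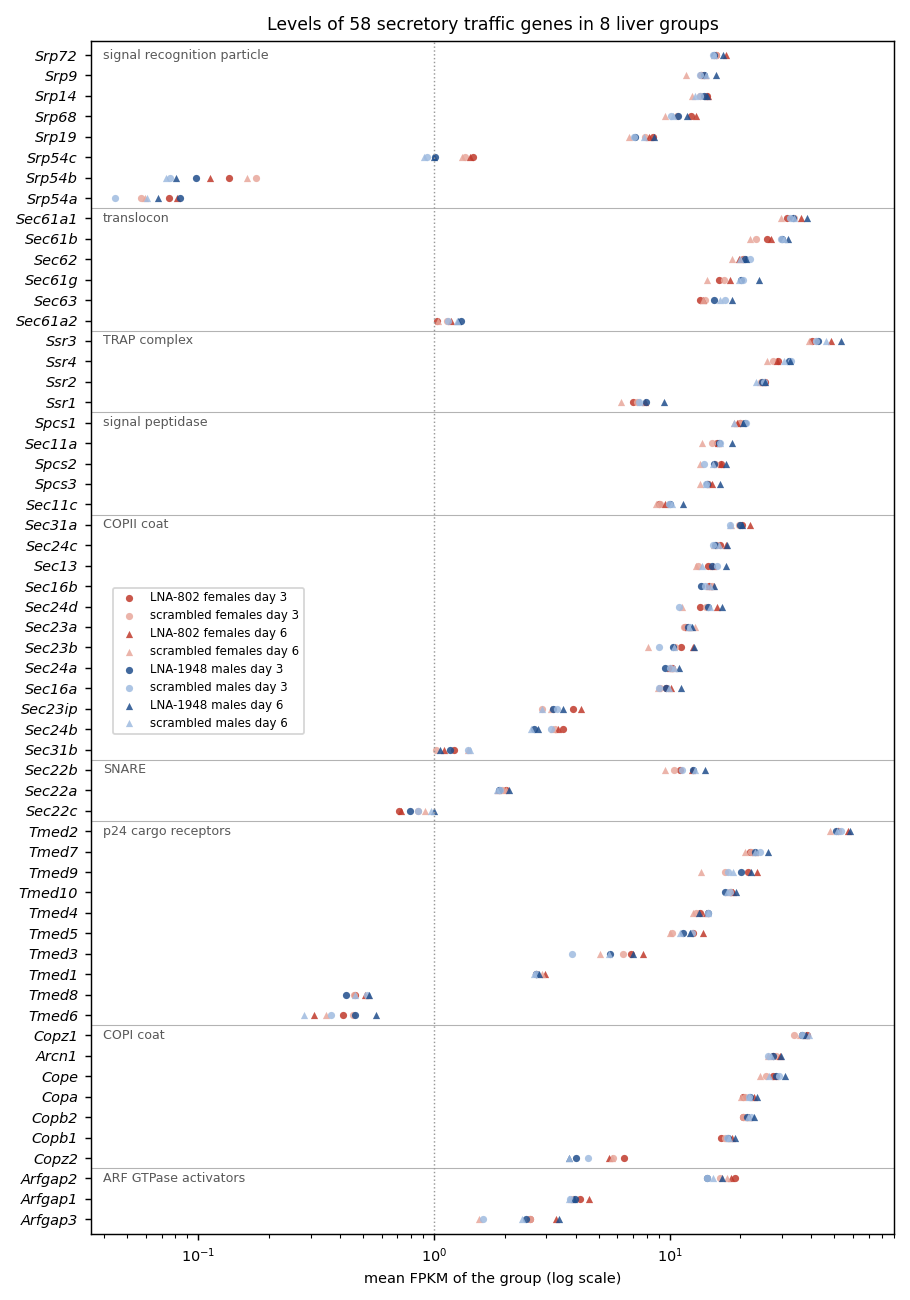
Authors' mean FPKM (log axis) of 58 members, by role, with 1 point per group; circles are day 3, triangles day 6, dark points anti-miR groups and pale points scrambled groups, and Tmed11 (0 in all groups) is left out. Points of a gene mostly lie close together, while Arfgap3, Tmed3, Tmed9 and Copz2 spread most among the members above 1 FPKM, with the day 6 scrambled females at the low end for Arfgap3, Tmed9 and Sec23b.

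Among the members that reached 1 FPKM, the highest group mean divided by the lowest was 2.18 for Arfgap3, 2.002 for Tmed3, 1.72 for Tmed9, 1.71 for Copz2, 1.66 for Sec61g, 1.60 for Srp54c, 1.57 for Sec23b, 1.53 for Ssr1 and 1.51 for Sec24d, and under 1.5 for the others. Under 1 FPKM it was 2.41 for Srp54b, 2.02 for Tmed6 and 1.88 for Srp54a. The members' FPKM summed to 830.8 in LNA-802 females and 805.0 in scrambled females at day 3, and to 876.6 in LNA-802 females and 760.0 in scrambled females at day 6. In males the sums were 835.6 with LNA-1948 and 829.1 with scrambled LNA at day 3, and 920.9 with LNA-1948 and 832.7 with scrambled LNA at day 6. Of the 53 members that reached 1 FPKM, 28 had their lowest mean of all 8 groups in the day 6 scrambled females, where 12.1% of all 9758 genes of that level had theirs. The day 6 LNA-1948 males held the highest mean for 31 of the 53, and 17.4% of all such genes.

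In LNA-802 females at day 6, Tmed9, Arfgap3 and Sec23b rose and no member fell (3 of 59 by the authors' edgeR adjusted p), where 0.339% of all genes were called and 0.182% were called higher. Of the members, 19 had an unadjusted edgeR p under 0.05, all with higher means in LNA-802 females per the authors' deposited table, where 4.41% of all genes had such a p. All of these members had at least 1 FPKM in either group. Of 9457 genes of that level, 38 were called higher and 25 lower. An unadjusted edgeR p under 0.05 was reached by 366 of them with log2 ratios above 0 and 318 with log2 ratios below 0. Of the 53 members with at least 1 FPKM in either group, 47 had log2 ratios above 0, against 52.4% of all genes of that level. Their median log2 ratio was 0.20, beside 0.01 for all genes, so the shift was broad and small next to the 3 called genes.

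**Figure D2:**
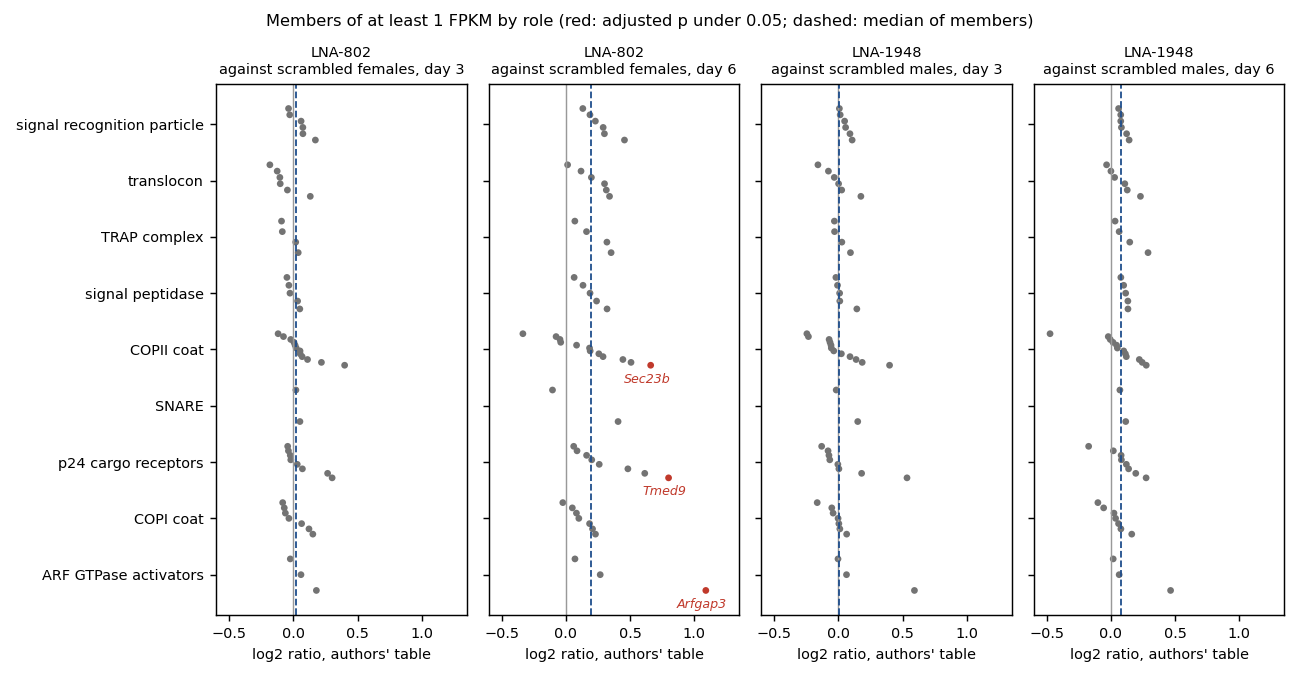
Log2 ratio of anti-miR over scrambled per the authors' deposited table for members that reached 1 FPKM, 1 panel per comparison and 1 row per role; red points have an adjusted p under 0.05 and the dashed line is the members' median. The day 6 female panel holds the 3 red points, and its median is 0.20, against 0.02, 0.00 and 0.08 in the day 3 female, day 3 male and day 6 male panels.

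**Figure D3:**
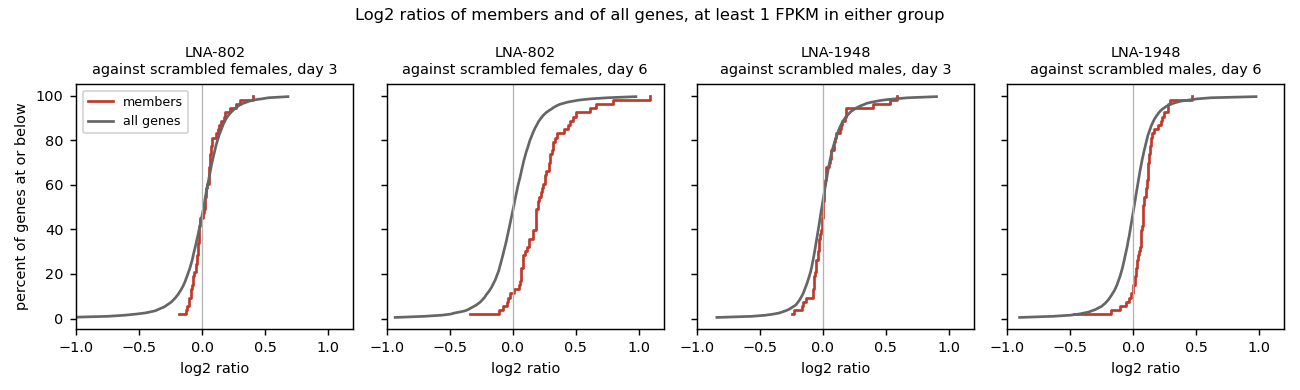
Percent of genes at or below each log2 ratio for members (red steps) and for all genes (grey), at least 1 FPKM in either group of the comparison; the grey line runs over percentiles and the plot spans log2 ratios from -1 to 1.2. The red line lies to the right of the grey over nearly its whole length in day 6 females, with medians of 0.20 and 0.01, and by less in day 6 males, with medians of 0.08 and 0.01, while both lines nearly coincide at their centres at day 3.

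Among the genes that bring proteins to the ER membrane, none passed the adjusted threshold, but all 6 measured members of the signal recognition particle had log2 ratios above 0 in day 6 females (median 0.26). Srp68, a subunit that binds the particle's RNA together with Srp72, averaged 12.4 FPKM in LNA-802 females and 10.8 FPKM in scrambled females at day 3. At day 6 it averaged 12.997 FPKM in LNA-802 females and 9.59 FPKM in scrambled females. In males it averaged 10.8 FPKM with LNA-1948 and 10.1 FPKM with scrambled LNA at day 3, and 11.9 FPKM with LNA-1948 and 10.3 FPKM with scrambled LNA at day 6. The day 6 scrambled females were the lowest of the 8 groups and the day 6 LNA-802 females the highest. Its log2 ratio in day 6 females was 0.46 ± 0.14 per the authors' deposited table, with an edgeR adjusted p of 0.157. Srp9, an Alu-domain subunit of the particle, had a log2 ratio of 0.29 ± 0.13 and Srp72 one of 0.19 ± 0.12 per the authors' deposited table for the same comparison.

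All 6 translocon genes also had log2 ratios above 0 in day 6 females (median 0.25) by the authors' scaled ratio, and 5 of 6 by mean FPKM. Of these, 3 had an unadjusted edgeR p under 0.05. These were the channel subunits Sec61a1, Sec61b and Sec61g, with log2 ratios of 0.30 ± 0.14, 0.31 ± 0.14 and 0.34 ± 0.16 per the authors' deposited table. Sec61a1 averaged 31.6 FPKM in LNA-802 females and 33.7 FPKM in scrambled females at day 3, and 36.0 FPKM in LNA-802 females and 29.6 FPKM in scrambled females at day 6. Sec63, which works with Sec62 in post-translational import, averaged 13.8 FPKM in LNA-802 females and 13.9 FPKM in scrambled females at day 6, with a log2 ratio of 0.01 per the authors' deposited table and 0.00 by mean FPKM. The 4 TRAP genes, whose products flank the channel and assist some signal peptides, had a median of 0.24, and Ssr1 and Ssr3 had log2 ratios of 0.35 ± 0.15 and 0.32 ± 0.16 per the authors' deposited table. Ssr1 averaged 7.86 FPKM in LNA-802 females and 6.23 FPKM in scrambled females at day 6. The 5 signal peptidase genes had a median of 0.19, from 0.06 for Spcs1 to 0.32 for Spcs2, both subunits without the catalytic site, per the authors' deposited table. Spcs1 overlaps Glt8d1 (1.78 FPKM) and Copa overlaps Ncstn (7.68 FPKM) in mm9, the build of the table, and whether reads were counted by strand is not given in the sources used here.

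Sec23b was the called gene of the COPII coat. Its product is an inner-coat subunit that activates the GTPase Sar1 and binds cargo adaptors of the Sec24 family, and the gene lies on chromosome 2. It averaged 11.2 FPKM in LNA-802 females and 10.6 FPKM in scrambled females at day 3, and 12.6 FPKM in LNA-802 females and 8.07 FPKM in scrambled females at day 6. In males it averaged 10.3 FPKM with LNA-1948 and 9.05 FPKM with scrambled LNA at day 3, and 12.7 FPKM with LNA-1948 and 10.4 FPKM with scrambled LNA at day 6. The day 6 scrambled females were the lowest group, and the day 6 anti-miR groups of both sexes stood level at the top. In the authors' deposited table Sec23b rose 1.58-fold in day 6 females (log2 ratio 0.66 ± 0.15, edgeR adjusted p = 0.0105), and its log2 ratio was 0.05 at day 3.

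The other COPII genes divided. The paralog Sec23a averaged 12.0 FPKM in LNA-802 females and 12.8 FPKM in scrambled females at day 6, a log2 ratio of -0.08 per the authors' deposited table. Of the cargo adaptors, Sec24d averaged 15.9 FPKM in LNA-802 females and 11.3 FPKM in scrambled females, a log2 ratio of 0.51 ± 0.16 per the authors' deposited table (adjusted p = 0.232 by edgeR). Sec24a stood at a log2 ratio of -0.05 per the authors' deposited table. Sec31a, the outer-coat subunit, had one of 0.29 ± 0.12, while its low paralog Sec31b, at 1.10 FPKM in LNA-802 females and 1.40 FPKM in scrambled females, had one of -0.33 ± 0.20 per the authors' deposited table. Sec23ip, which encodes a Sec23-binding protein of ER exit sites and is not itself a coat subunit, averaged 3.88 FPKM in LNA-802 females and 2.87 FPKM in scrambled females at day 3. At day 6 it averaged 4.23 FPKM in LNA-802 females and 3.14 FPKM in scrambled females, so the difference was alike in size on both days. The log2 ratios of Sec23ip were 0.40 ± 0.14 at day 3 (edgeR p = 0.00562, adjusted p = 1) and 0.44 ± 0.13 at day 6 (p = 0.000963, adjusted p = 0.159) per the authors' deposited table. In all, 8 of the 12 COPII genes lay above 0 in day 6 females, with a median of 0.19. Sec22b, the SNARE that helps ER-derived vesicles to fuse, averaged 12.5 FPKM in LNA-802 females and 9.54 FPKM in scrambled females, a log2 ratio of 0.41 ± 0.13 per the authors' deposited table (adjusted p = 0.266 by edgeR). Sec22a and Sec22c stood at -0.10 and -0.31 per the authors' deposited table.

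Tmed9, a p24 receptor of the alpha subfamily, had the smallest p of all members. It lies at chr13:55694495-55699055 in mm9. It averaged 21.6 FPKM in LNA-802 females and 17.1 FPKM in scrambled females at day 3, and 23.4 FPKM in LNA-802 females and 13.6 FPKM in scrambled females at day 6. In males it averaged 20.1 FPKM with LNA-1948 and 17.7 FPKM with scrambled LNA at day 3, and 22.2 FPKM with LNA-1948 and 18.6 FPKM with scrambled LNA at day 6. Each anti-miR mean exceeded each scrambled mean, and the gap was widest in day 6 females. There Tmed9 rose 1.74-fold per the authors' deposited table (log2 ratio 0.80 ± 0.13, edgeR adjusted p = 2.91e-06). The day 3 female log2 ratio was 0.30 ± 0.17 (p = 0.068), and those of the males were 0.18 ± 0.13 at day 3 and 0.19 ± 0.14 at day 6 per the authors' deposited table, none of them called by edgeR.

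The other p24 genes followed in smaller steps. Tmed3, of the gamma subfamily, averaged 6.85 FPKM in LNA-802 females and 6.38 FPKM in scrambled females at day 3, and 7.71 FPKM in LNA-802 females and 5.09 FPKM in scrambled females at day 6. Its day 6 log2 ratio was 0.61 ± 0.16 per the authors' deposited table, with an edgeR adjusted p of 0.0531. Tmed5, also of the gamma subfamily, averaged 12.6 FPKM in LNA-802 females and 10.3 FPKM in scrambled females at day 3, and 13.9 FPKM in LNA-802 females and 10.1 FPKM in scrambled females at day 6. Its day 6 log2 ratio was 0.48 ± 0.14 (edgeR adjusted p = 0.0917) per the authors' deposited table. All 8 p24 genes of at least 1 FPKM lay above 0 in day 6 females (median 0.23), down to 0.06 for Tmed1, which overlaps Dnm2 in the annotation.

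**Figure D4:**
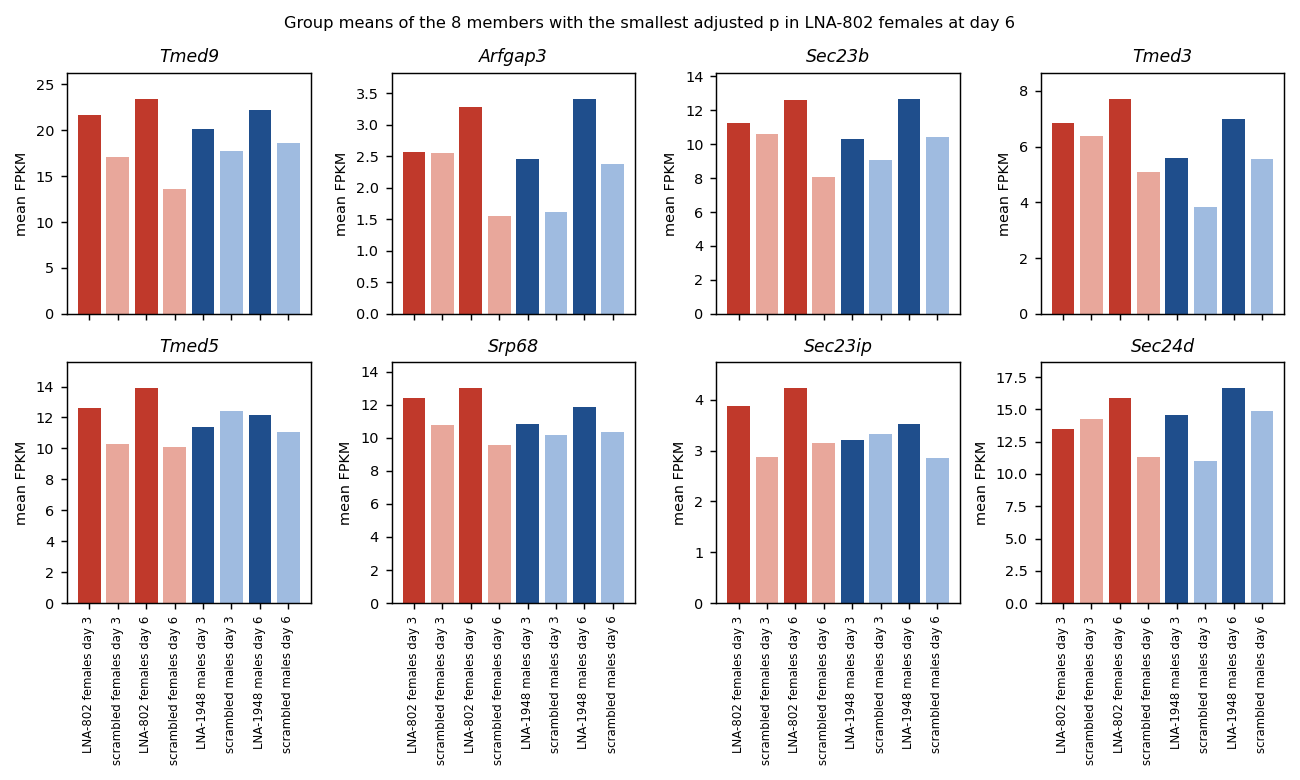
Authors' mean FPKM (linear axes from 0) in the 8 groups of the 8 members with the smallest adjusted p in day 6 females; dark bars are anti-miR groups, pale bars scrambled groups, and no error bars are drawn because the table has no values per mouse. The day 6 scrambled females are the lowest of the 8 groups for Tmed9 (13.6 FPKM), Arfgap3 (1.56 FPKM), Sec23b (8.07 FPKM), Tmed5 (10.1 FPKM) and Srp68 (9.59 FPKM).

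The COPI coat carries the return traffic. None of its 7 genes had an unadjusted edgeR p under 0.05 in day 6 females, and their median log2 ratio was 0.10 (6 above 0), from -0.02 for Copz2 to 0.23 for Cope. Copz1, its most abundant member, averaged 37.8 FPKM in LNA-802 females and 35.7 FPKM in scrambled females at day 6. Arfgap3, which encodes a protein that stimulates GTP hydrolysis by ARF1 on COPI-coated membranes, differed most in ratio of all members above 1 FPKM, at a low level. It lies at chr15:83130169-83180677 in mm9. It averaged 2.56 FPKM in LNA-802 females and 2.55 FPKM in scrambled females at day 3, and 3.29 FPKM in LNA-802 females and 1.56 FPKM in scrambled females at day 6. In males it averaged 2.45 FPKM with LNA-1948 and 1.62 FPKM with scrambled LNA at day 3, and 3.41 FPKM with LNA-1948 and 2.37 FPKM with scrambled LNA at day 6. The scrambled groups themselves spanned 1.56 to 2.55 FPKM, with the lowest and the highest both in females. In the authors' deposited table Arfgap3 rose 2.13-fold in day 6 females (log2 ratio 1.09 ± 0.18, edgeR adjusted p = 1.14e-05). Its relatives Arfgap1 and Arfgap2 stood at log2 ratios of 0.27 and 0.07 per the authors' deposited table.

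At day 3 in females no member was called by edgeR's adjusted p, where 0.0165% of all genes were. The member with an unadjusted p under 0.05 was Sec23ip, and 2.63% of all genes had such a p. Of 53 members, 29 lay above 0 with a median of 0.02 per the authors' deposited table, against 53.4% and 0.01 for all genes. By mean FPKM, without the authors' scaling, 36 of 53 members lay above 0 with a median of 0.05, against 63% and 0.05 for all genes. Sec22c, which encodes an ER SNARE-like protein and averaged 0.710 FPKM in LNA-802 females and 0.856 FPKM in scrambled females, stood at a log2 ratio of -0.31 ± 0.20 per the authors' deposited table.

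No member was called in LNA-1948 males on either day by edgeR's adjusted p, where 0.0537% of all genes were called at day 3 and 0.124% at day 6. Unadjusted p under 0.05 was reached by 4 members at day 3, beside 2.76% of all genes, and by 6 at day 6, beside 3.07%. The members with such a p at day 3 included Tmed3, at 5.59 FPKM in LNA-1948 males and 3.85 FPKM in scrambled males. Its log2 ratio was 0.53 ± 0.19 (edgeR p = 0.00407, adjusted p = 0.805) per the authors' deposited table. Sec24d averaged 14.5 FPKM in LNA-1948 males and 11.02 FPKM in scrambled males at day 3, a log2 ratio of 0.40 ± 0.15 (edgeR p = 0.00688, adjusted p = 0.962) per the authors' deposited table. Arfgap3 had log2 ratios of 0.59 ± 0.25 at day 3 and 0.46 ± 0.18 at day 6 per the authors' deposited table, neither called by edgeR (adjusted p = 1 and 0.989). The genes called in day 6 females, Tmed9, Arfgap3 and Sec23b, had higher means in LNA-1948 males on both days without passing the threshold. At day 6 Ssr1 averaged 9.51 FPKM in LNA-1948 males and 7.48 FPKM in scrambled males (log2 ratio 0.29 ± 0.11), and Sec31b averaged 1.06 FPKM in LNA-1948 males and 1.42 FPKM in scrambled males (log2 ratio -0.47 ± 0.18) per the authors' deposited table. The day 6 male ratios lay above 0 for 46 of 53 members with a median of 0.08, beside 52.4% and 0.01 for all genes. By mean FPKM they lay above 0 for 49 of 53 members with a median of 0.14, beside 70.1% and 0.06 for all genes. At day 3 the members' median was 0.00 with 28 of 53 above 0, beside 47.3% and -0.01 for all genes.

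Whether the day 6 female effect differed from the others was tested gene by gene, with a two-sided z test that is approximate because it rests on the deposited ratios and p-values. A standard error worked back from a p near 1 can be too small or too large, so the test was repeated with each standard error at least the median of genes of like level, an alternative chosen after the values were seen. The change in the LNA-802 effect, day 6 minus day 3, passed an adjusted p of 0.05 for 0 of 53 members, where 0.0747% of 9375 genes did. It had an unadjusted p under 0.05 for 6 members (3.81% of all genes), and the difference lay above 0 for 46 of 53. The share of all genes with a difference above 0 was not counted. The z test gave Arfgap3 a difference of 1.11 ± 0.28 on the log2 scale (adjusted p = 0.0881 over all genes tested) and Tmed9 one of 0.50 ± 0.21 (adjusted p = 1). The repeat gave 0 members called and the same 6 genes with an unadjusted p under 0.05. Between LNA-802 females and LNA-1948 males at day 6, 0 of 53 members passed, where 0.492% of 9354 genes did, and 5 had an unadjusted p under 0.05 (4.38% of all genes). The largest of these in z was Tmed9, with a difference of 0.61 ± 0.19 on the log2 scale (z test, adjusted p = 0.207 over all genes tested). The repeat gave 0 members called and 4 with an unadjusted p under 0.05 (4.1% of all genes), without Sec61b, whose deposited p in day 6 males was 0.997. The 3 calls in day 6 females are therefore not shown to be particular to that day, sex or LNA.

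The scrambled females themselves differed between days. Between day 3 and day 6 the members' median log2 ratio of mean FPKM was 0.07 in LNA-802 females and -0.08 in scrambled females, beside -0.01 and 0.04 for all genes. Of 53 members, 39 were higher at day 6 in LNA-802 females and 11 in scrambled females. Of all genes of at least 1 FPKM, 4244 of 9384 were higher at day 6 in LNA-802 females and 5840 of 9478 in scrambled females. Arfgap3 differed by 0.35 in LNA-802 females and by -0.67 in scrambled females, Sec23b by 0.17 in LNA-802 females and -0.39 in scrambled females, and Tmed9 by 0.11 in LNA-802 females and -0.33 in scrambled females. In males the members' median was 0.13 with LNA-1948 (46 of 53 higher at day 6) and 0.01 with scrambled LNA (28 of 52), beside 0.02 and -0.05 for all genes. Of all genes of at least 1 FPKM, 5321 of 9256 were higher at day 6 in LNA-1948 males and 3273 of 9235 in scrambled males. Days were compared without a test, and they are separate library series. Set against the day 3 scrambled females instead, and with no pseudocount, day 6 LNA-802 females had log2 ratios of 0.45 for Tmed9, 0.37 for Arfgap3, 0.25 for Sec23b and 0.56 for Sec23ip. The members' median with that control was 0.10 (47 of 53 above 0), beside 0.03 and 59.9% for all genes. This second control was chosen after the levels were seen.

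**Figure D5:**
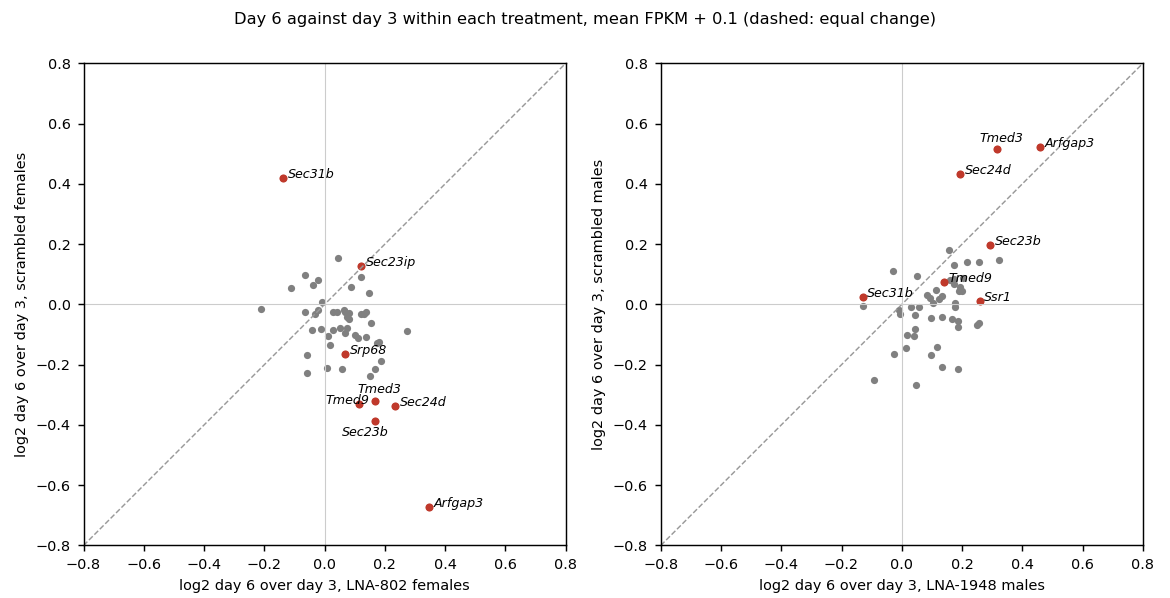
Log2 ratio of day 6 over day 3 (mean FPKM + 0.1) of members that reached 1 FPKM, anti-miR on the x axis and scrambled on the y axis, females left and males right; the dashed line marks equal change and the members in red are labelled. In females Arfgap3 (0.35 with LNA-802, -0.67 with scrambled LNA), Sec23b, Sec24d, Tmed3 and Tmed9 lie low and right, while in males Arfgap3, Tmed3 and Sec24d lie above 0 on both axes.

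The scrambled groups also allow a comparison of the sexes without an anti-miR, which uses the same control mice as the anti-miR comparisons, so both sets of ratios are not independent. At day 3 no member was called by edgeR between scrambled males and scrambled females, where 3.36% of all genes were, and 5 members had an unadjusted p under 0.05, beside 9.92% of all genes. At 1 FPKM or more in either group, 272 of 9462 genes were called higher and 336 lower. Of the 53 members of that level, 1 higher and 3 lower had an unadjusted edgeR p under 0.05, beside 762 higher and 824 lower of the 9462 genes. At day 6, 5 members were called, all with higher means in scrambled males, where 4.43% of all genes were called and 1.91% were called higher. In the authors' deposited table these were Arfgap3 (log2 ratio 0.69, edgeR adjusted p = 0.00523), Sec61b (0.57, adjusted p = 0.00658), Sec22b (0.53, adjusted p = 0.00853), Tmed9 (0.55, adjusted p = 0.0196) and Sec61g (0.53, adjusted p = 0.0476). Arfgap3 went the other way at day 3, with a log2 ratio of -0.64 per the authors' deposited table. Over both days 8 members were called by edgeR, where 7.81% of all genes were. Sec61b, Sec61g, Sec63, Ssr4 and Sec22b were higher in scrambled males (3.19% of all genes), with log2 ratios of 0.30 to 0.47, and Copz2, Srp54b and Srp54c were lower (4.62% of all genes), with -0.42, -1.11 and -0.48 per the authors' deposited table. Srp54b averaged only 0.076 FPKM in scrambled males and 0.18 FPKM in scrambled females at day 3, and 0.073 and 0.16 FPKM at day 6. How reads were divided between Srp54b, Srp54c and Srp54a is uncertain. Sec61b averaged 29.8 FPKM in scrambled males and 23.2 FPKM in scrambled females at day 3, and 30.5 FPKM in scrambled males and 21.9 FPKM in scrambled females at day 6. Copz2 averaged 4.49 FPKM in scrambled males and 5.75 FPKM in scrambled females at day 3, and 3.76 FPKM in scrambled males and 5.70 FPKM in scrambled females at day 6. Kupffer cell markers were lower in scrambled males on both days per the authors' deposited table, with 9 of 11 called lower by edgeR at day 3 (median -0.84, 1.99% of all genes called lower) and 9 of 10 at day 6 (median -0.64, 2.52%). Sinusoidal endothelial markers had medians of -0.27 at day 3 and -0.20 at day 6, and their part in the sex differences of the members was not tested.

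Other genes of the route were read from lists chosen for their roles. In day 6 females 25 of 32 measured genes of the COPI, Golgi and tethering list lay above 0 (median 0.17), where 52.4% of all genes did, and 2 rose by the adjusted p, where 0.182% of all genes did. Both encode Golgi SNAREs. Gosr2 averaged 14.7 FPKM in LNA-802 females and 10.2 FPKM in scrambled females, 1.45-fold higher per the authors' deposited table (adjusted p = 0.0324 by edgeR). Stx5a averaged 13.6 FPKM in LNA-802 females and 9.46 FPKM in scrambled females, also 1.45-fold higher per the authors' deposited table (adjusted p = 0.0459 by edgeR). Of the targeting, translocon and glycosylation partners 19 of 21 lay above 0 (median 0.14, 0 called), and of the COPII and ER exit site partners 15 of 22 (median 0.08, 0 called). The ER chaperone and unfolded protein response list stood further out, with 28 of 28 above 0, a median of 0.38 and 6 genes called higher, namely Hspa5, Hyou1, Creld2, Sdf2l1, Manf and Syvn1. The secreted liver proteins, which are cargo of the route, had 12 of 20 above 0, a median of 0.04 and 0 called. The median of all genes was 0.01. None of these list genes was called by edgeR's adjusted p in the 3 other anti-miR comparisons. In day 6 males the chaperone list had 27 of 28 above 0 (median 0.19), and the secreted proteins 3 of 20 (median -0.11), beside 52.4% and 0.01 for all genes.

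Markers of other liver cells moved with some of these comparisons. In day 6 females all 10 Kupffer cell markers of at least 1 FPKM lay below 0 (median -0.31), and 0 were called. An unadjusted edgeR p under 0.05 was reached by 6 of them, where 4.41% of all genes had such a p. The list's levels summed to 75.7 FPKM in LNA-802 females and 95.7 FPKM in scrambled females. At day 3 the Kupffer cell sums were 85.3 FPKM in LNA-802 females and 92.2 FPKM in scrambled females. In males they were 77.9 FPKM with LNA-1948 and 53.2 FPKM with scrambled LNA at day 3, and 53.9 FPKM with LNA-1948 and 55.7 FPKM with scrambled LNA at day 6. At day 3 in males all 10 lay above 0 (median 0.55), each with an unadjusted edgeR p under 0.05, where 2.76% of all genes had such a p, and 0 were called. All 9 sinusoidal endothelial markers (median 0.15) and 6 of 7 stellate cell and matrix markers (median 0.32, 3 with such a p) also lay above 0 there, and hepatocyte markers had a median of 0.04. Day 6 males had medians of -0.17 for Kupffer cell, -0.01 for endothelial, -0.18 for stellate cell and -0.06 for hepatocyte markers. Day 3 females had -0.20 with 0 of 11 above 0 for Kupffer cell markers, -0.01 for endothelial, 0.07 for stellate cell and -0.05 for hepatocyte markers. Hepatocyte markers had a median of 0.08 (6 of 8 above 0), sinusoidal endothelial markers 0.03 (6 of 9) and stellate cell and matrix markers 0.06 (4 of 6) in day 6 females. Markers of cholangiocytes (Krt19, Krt7, Epcam), of T cells (Cd3e, Cd3g) and of exocrine pancreas (Cpa1, Pnlip) stayed under 1 FPKM in all groups. In each of these lists 1 marker reached it: Spp1 of the cholangiocyte, Sdc1 of the lymphocyte and plasma cell and Cela1 of the pancreas list. With these included, the lists summed to 7.96 to 13.8 FPKM, 29.6 to 53.5 FPKM and 10.1 to 14.3 FPKM per group, in that order. The part of cell composition in the members' ratios was not tested.

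Sequences complementary to the miR-802 seed were looked for in the longest annotated 3′ end of each gene (GENCODE annotation, GRCm38), where the match to miRNA bases 2 to 8 reads GTTACTG. Tmed9 holds it in 2 places within 707 bases, at positions 258 and 625, each followed by the A that makes an 8-base match. The 8-base sites of Tmed9, Sec63 and Sec11a are shown, on the sense strand, with the seed match in capitals.
Tmed9, chr13:55597237-55597266: agaatctcagtGTTACTGatcagggatatg
Tmed9, chr13:55597604-55597633: acagagtcttaGTTACTGagtttattttca
Sec63, chr10:42832257-42832286: tacattatcctGTTACTGagctaaaaatcc
Sec11a, chr7:80915794-80915823: ctgtgcttgttGTTACTGaatgttggagta
The strand is plus for Tmed9 and Sec63 and minus for Sec11a. Copa and Sec24c hold the 7-base match, and Sec22c, under 1 FPKM, holds 1 match of each kind. In all 6 of the 53 measured members hold the seed match (11.3%), beside 940 of 8942 genes of at least 1 FPKM (10.5%). The site of 1 of these 6 members is not listed here, so the listing is not complete.

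Members were grouped by whether they hold a match of either kind, and whether a match bears on the ratios was not tested. The median log2 ratio in day 6 females was 0.20 for the 6 members that hold it and 0.20 for the 47 that lack it, and at day 3 it was -0.01 for those that hold it and 0.02 for those that lack it. Over all 940 genes with a match the median was -0.01 at day 6. Sec63 had a log2 ratio of 0.01 and Sec11a one of 0.24 in day 6 females per the authors' deposited table. At least 2 matches of 8 bases, as in Tmed9, were found in 9 of the 8942 genes (0.101%), of which 6 had log2 ratios above 0 at day 6 with a median of 0.05, and Tmed9 was the 1 called. This count was made after the Tmed9 sites were seen. Arfgap3 and Sec23b hold no such letters in the 3′ ends read here. A match is a run of letters and was not tested as a binding site.

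Promoters of 300 bases around the annotated start (RefSeq, GRCm38.p6) were matched for 44 of the measured members and 7287 genes of at least 1 FPKM. Both strands were searched for letters known from genes of the unfolded protein response. The full ER stress element (CCAAT, 9 bases, CCACG) was in 0 of 44 members and 0.206% of all genes, and the second form (ATTGG, 1 base, CCACG) in 0 and 0.11%. The core of the unfolded protein response element, TGACGTGG, was in 5 of 44 members (11.4%) and in 76 of all genes (1.04%). These 5 are COPI and COPII genes, and 40 bases around the core are shown on the gene's own strand, with the core or its reverse complement in capitals.
Sec24d, chr3:123267454-123267493, plus: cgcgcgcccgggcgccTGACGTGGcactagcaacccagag
Sec16b, chr1:157506736-157506775, plus: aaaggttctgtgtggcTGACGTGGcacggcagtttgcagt
Sec23a, chr12:59011988-59012027, minus: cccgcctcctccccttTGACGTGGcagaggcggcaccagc
Copb1, chr7:114254685-114254724, minus: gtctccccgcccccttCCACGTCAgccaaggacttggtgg
Copb2, chr9:98563708-98563747, plus: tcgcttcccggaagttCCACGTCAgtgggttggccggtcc
The core begins between 44 bases before and 6 bases after the start. The day 6 female log2 ratios of these genes were 0.51 for Sec24d, -0.04 for Sec16b, -0.08 for Sec23a, 0.08 for Copb1 and 0.05 for Copb2 per the authors' deposited table. The median of these 5 was 0.05, against 0.21 for the 39 members without the core. The shorter letters ACGTG, which the core contains, were in 26 of 44 members (59.1%) and 30% of all genes, with a median of 0.12 in members that hold them and 0.25 in those that lack them. The cyclic AMP response element TGACGTCA was in 1 member, Cope (2.27%), and 3.65% of all genes. Tmed9 has ACGTG 4 bases before its start.

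By a rule set for the member with the smallest p, the genes whose pattern over the 8 group means was most like that of Tmed9 were sought among 4541 others that reached 5 FPKM. Pearson's r was 0.95 for Gorasp2, 0.94 for Ostc, 0.94 for Kdelr2, 0.94 for Yipf5 and 0.93 for Otud6b. Among members it was 0.92 for Sec23b, 0.90 for Srp68, 0.89 for Srp14, 0.88 for Spcs2 and 0.82 for Tmed5. Kdelr2, the receptor that retrieves ER proteins from the Golgi, averaged 27.4 FPKM in LNA-802 females and 20.6 FPKM in scrambled females at day 6, and the day 6 scrambled females are the lowest of its 8 groups. These correlations describe 8 group means that share libraries and scaling, and carry no test.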

How the data were processed

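The 59 genes were found by symbol, and they and all gene lists were chosen with earlier results of these data known. The submitters' processing notes name TopHat2 and the mm9 build for mapping, featureCounts for counting and edgeR for the comparisons; versions are not given in the sources used here. The mean FPKM of each group, a linear expression ratio and the unadjusted and adjusted p-value of 7 comparisons were computed by the authors, per the file headers. The deposited adjusted p-values equalled Benjamini-Hochberg values over all 24197 genes, which was checked. The deposited ratio departed from the ratio of mean FPKM by 0.09 or less on the log2 scale at the median gene. The block of 1 comparison was sorted differently and was joined through its own symbols.

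The table has neither counts nor values per mouse, so no model was fitted, and the authors' edgeR calls at an adjusted p of 0.05 were used in place of a fit per mouse. Approximate standard errors were the absolute log2 ratio divided by the normal quantile of its p. The difference of effects used an approximate two-sided z test with Benjamini-Hochberg adjustment over genes of at least 1 FPKM. It was repeated with each standard error at least the median of 201 genes of like level (those with p up to 0.5). Both forms were run on simulated data whose p-values came from the same normal formula. That run could not test whether edgeR p-values give back sound standard errors. Ratios of day 6 over day 3 within a treatment used a pseudocount of 0.1, and those against the day 3 scrambled females none. Ratios with a pseudocount understate changes of low genes. The 12 lists hold 191 genes. Genes named with values were those called, the highest of each role, the 15 smallest adjusted p in day 6 females and the 3 smallest p elsewhere; others were named after their values were seen. Alternatives were other thresholds, minimum levels, pseudocounts (0.01 and 1), centring, another control and these standard errors, the last 2 added after the values were seen. Python 3.11.15, pandas 2.3.3 and scipy 1.17.1 were used.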

Additional observations from a re-analysis of the deposited data

How the results depend on the processing

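The table has no depths and no values per mouse, so leaving out a mouse was not run. No paired analysis was possible because the table has no values per mouse. In day 6 females the 3 called members became 5 at an adjusted p of 0.1 and 5 when adjustment ran over genes of at least 1 FPKM, where Tmed3 (adjusted p = 0.0269) and Tmed5 (adjusted p = 0.0473) joined under edgeR's p-values; fewer genes were then adjusted for. Unadjusted p under 0.05 gave 1, 19, 4 and 6 members in day 3 females, day 6 females, day 3 males and day 6 males. The members' median in day 6 females was 0.10 with the day 3 scrambled females as the control, and in day 6 males it was 0.14 with a pseudocount of 0.01, where mean FPKM replaced the authors' scaled ratio and the median of all genes was 0.06. No called gene changed direction. Of 212 member values above the 1 FPKM minimum in the 4 anti-miR comparisons, 11 had the opposite sign by mean FPKM, none of them called: 7 in day 3 females, 1 (Sec63) in day 6 females and 3 in day 6 males, all within 0.0347 of 0 by the authors' ratio. Of 299 recomputed single-gene ratios 14 changed sign, and the one farthest from 0 was Sec31b in day 6 females, at -0.33 as deposited and 0.10 against the day 3 scrambled females. In all, 314 single-gene values moved by less than 0.05 log2 or kept their side of the threshold and 75 moved by more, 30 of them with a pseudocount of 1 (by at most 0.34), 23 with a pseudocount of 0.01 (by at most 0.06) and 22 with the day 3 control (by at most 0.72). The 37 other counts and medians stayed within 1.5 times or 0.05 log2 under the other thresholds, minimum levels, pseudocounts, centring and standard errors. Within that limit, the 3 called members in day 6 females became 2 with a minimum of 5 FPKM, without Arfgap3, which averaged at most 3.41 FPKM in any group.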
